A study of Danio rerio with 6 samples.

Results

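*ccbl1* and *cryl1* are a pair of genes for enzymes of small-molecule metabolism. Under the main processing their transcripts were 10.5-fold (*ccbl1*) and at least 10.2-fold (*cryl1*) lower in *vhl* mutant zebrafish embryos than in wild-type embryos. The bound on *cryl1* takes readings as measured, also in mutant pools where it was not well above background. Each was read by 1 probe of the array, named CUST_1750_PI415676703 for *ccbl1* and CUST_7420_PI415676703 for *cryl1*, and found by the accession of the cDNA it was designed on. Together they are 2 of 41031 probes and 3 of 43803 spots, because *ccbl1* was printed as 2 spots and *cryl1* as 1 spot. The pair was picked out because it fell in these same arrays, so the levels in *vhl* mutant and wild-type embryos are given as a description, with no test. *ccbl1* is now called *kyat1*.

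CCBL1, also known as kynurenine aminotransferase or glutamine transaminase K, is a pyridoxal phosphate enzyme of the cytosol. In mammals it moves the amino group of glutamine or kynurenine onto an oxo acid, and it can also split cysteine conjugates as a beta-lyase, an activity known best from the kidney. CRYL1 was first named as the lambda-crystallin of the rabbit lens, and in mammals it acts as L-gulonate dehydrogenase in the route that takes glucuronate towards xylulose. It belongs to the same protein family as the 3-hydroxyacyl-CoA dehydrogenases of fatty acid oxidation. VHL is the part of a ubiquitin ligase that recognises hydroxylated HIF alpha subunits for degradation, so that embryos lacking it keep a hypoxic response in normal oxygen.

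The study set *vhl* mutant embryos against wild-type embryos to find the genes that change when Vhl is lost. The 3 *vhl* mutant arrays (replicates 1, 3 and 4) and the 3 wild-type arrays (replicates 2, 3 and 4) were each hybridised with RNA from a pool of 30 whole embryos of a TL/LWT strain mix at 4 days post fertilisation, all raised in E3 medium with methylene blue. Per the methods of the study the mutants were homozygous for the *vhl* hu2117 allele, from a line crossed into the Tg(*phd3::EGFP*) i144 hypoxia reporter. Whether the wild-type pools carried that transgene is not given in the sources used here, and 30 embryos in 1 pool leave the spread between single embryos unmeasured. Whole embryos were used, so the organ in which either enzyme was transcribed was not measured, and fewer cells of a type and less RNA per cell cannot be told apart.

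Between 67.2% and 72.4% of spots were well above background on the *vhl* mutant arrays, against 67.2% to 69.5% on the wild-type arrays. Levels correlated across all probes at 0.979 to 0.989 among *vhl* mutant arrays and 0.993 to 0.995 among wild-type arrays. Feature Extraction marked 97 to 137 spots per *vhl* mutant array as outliers, against 31 to 51 per wild-type array, and no spot of *ccbl1* or *cryl1* was among them or saturated. The arrays came from 2 slides, none of which held both genotypes, so that slide and genotype cannot be told apart.

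*ccbl1* was bright in wild-type embryos and dimmer by different amounts in the 3 *vhl* mutant pools. Before any correction, the median pixel brightness of its spots was 631.5 and 675 scanner units in *vhl* mutant replicate 1, 159 and 175 in replicate 3, and 209 and 206.5 in replicate 4. In wild-type embryos the same spots read 4132 and 4178 in replicate 2, 4165 and 4252 in replicate 3, and 4220 and 4387 in replicate 4. All 12 readings were well above background, the groups did not overlap, and *vhl* mutant replicate 1 stood above the other mutant pools.

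*cryl1* was also bright in wild-type embryos, and in mutants its probe came close to the floor of the arrays. Its spot read 35, 43 and 321 scanner units in *vhl* mutant replicates 1, 3 and 4, against 1533, 1481.5 and 1596 in wild-type replicates 2, 3 and 4. The median of the 153 negative control spots was 32, 37 and 42 on those *vhl* mutant arrays and 44, 45 and 45.5 on the wild-type arrays. By the flags of Feature Extraction *cryl1* cleared background in 1 of the 3 *vhl* mutant pools, replicate 4, and in 3 of 3 wild-type pools. On *vhl* mutant replicates 1 and 3 the *cryl1* spot lay below the 95th percentile of the negative controls, which was 46.4 and 44, so only a bound on its level is available there.

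**Figure D1:**
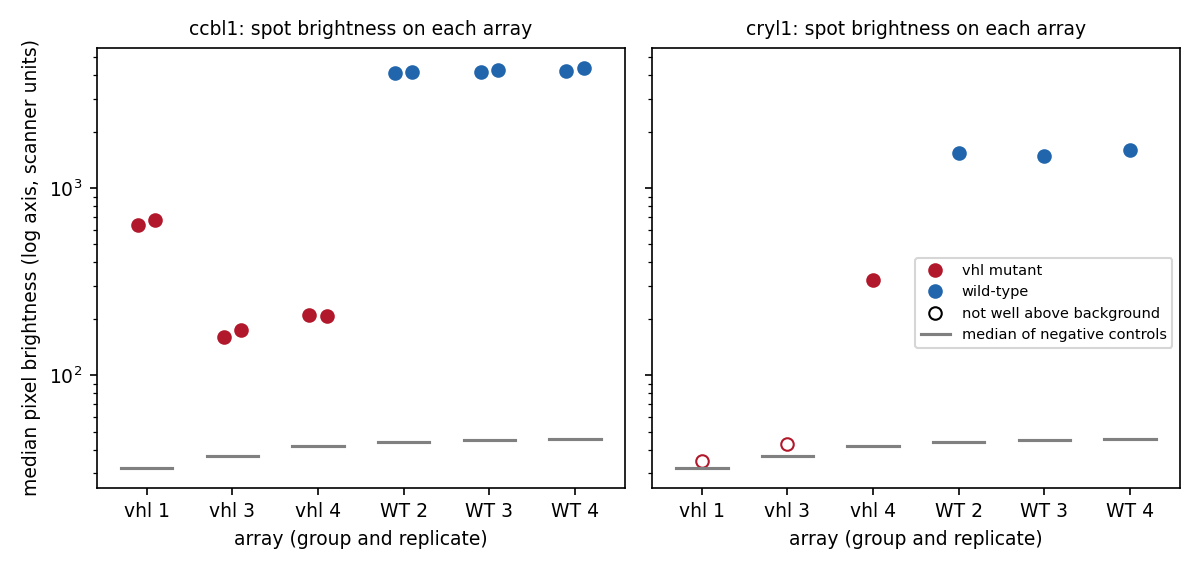
Median pixel brightness (scanner units, log axis) of the 2 *ccbl1* spots and the 1 *cryl1* spot on each of 3 *vhl* mutant and 3 wild-type arrays, with open circles for spots not well above background and grey lines for the median of the negative controls. The *ccbl1* spots of *vhl* mutant replicate 1 (631.5 and 675) lie above those of replicates 3 and 4, while for *cryl1* it is replicate 4 (321) that lies above the others.

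After normexp background correction and quantile normalisation, *ccbl1* had log2 intensities of 9.63, 7.88 and 7.98 in *vhl* mutant replicates 1, 3 and 4, against 11.82, 11.95 and 11.92 in wild-type replicates 2, 3 and 4. The *vhl* mutant mean was 8.50 ± 0.98 and the wild-type mean 11.89 ± 0.065 (SD, n = 3 each). The log2 fold change, *vhl* mutant over wild-type, was -3.40 (SE 0.46), which is 10.5-fold lower in *vhl* mutants. Taken alone, *vhl* mutant replicate 1 was 4.80-fold below the wild-type mean, replicate 3 was 16.1-fold below it and replicate 4 was 15.1-fold below it. *ccbl1* was therefore lower in 3 of 3 *vhl* mutant pools, but the depth of the fall was not shared.

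*cryl1* had log2 intensities of 6.35, 6.49 and 8.55 in *vhl* mutant replicates 1, 3 and 4, against 10.44, 10.48 and 10.52 in wild-type replicates 2, 3 and 4. The means were 7.13 ± 1.23 in *vhl* mutants and 10.48 ± 0.040 in wild-type embryos (SD, n = 3 each). The fitted log2 fold change was -3.35 (SE 0.57). With 2 of the 3 mutant pools not well above background, it is read as at least 10.2-fold lower in *vhl* mutants under this processing. The bound is the fitted value itself, because both dim readings lay above the lowest level well above background on their arrays (6.33 and 5.67). That level is the minimum over all probes flagged on an array, so it makes a lenient bound. Levels somewhat above these 2 readings were not excluded, and the bounds rest on the readings as measured. Normexp with 75th percentile scaling gave a smaller fitted fall, of 7.34-fold. The bounds on *cryl1* given here therefore hold for the main processing alone. Replicate 4, the pool in which the transcript was measured above background, was 3.81-fold below the wild-type mean. Replicates 1 and 3, where the probe gave only a bound, were at least 17.5-fold and at least 15.9-fold below it. *cryl1* was lower in 3 of 3 *vhl* mutant pools, and the pool with the smallest fall was not the pool with the smallest fall of *ccbl1*.

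Both probes passed the call used for all probes, a limma adjusted p of 0.01 or less after Benjamini-Hochberg correction with a change of at least 2-fold, as did 3.22% of the 41031 probes. Of all probes, 635 were called lower in *vhl* mutants (1.55%) and 687 higher (1.67%), and the 2 groups of arrays did not overlap for 43.8%. Lower calls were 48.0% of all calls, against 26.2% with the processed signal scaled by percentile and 37.3% with percentile scaling after defective spots were left out, a setting chosen after seeing the data. Normexp with percentile scaling gave 9 limma calls and normexp without normalisation gave 3, and all of these were higher in *vhl* mutants. As the pair was selected on this contrast, nothing is read from its calls. By size of fitted change *ccbl1* was the 6th and *cryl1* the 7th of the 635 probes called lower, whose median log2 fold change was -1.32, and since the fall of *cryl1* is a lower bound its place beside *ccbl1* is not settled. The count of calls moved with single arrays, to 2169 without *vhl* mutant replicate 1, 871 without *vhl* mutant replicate 3, 624 without wild-type replicate 2, 389 without wild-type replicate 3 and 481 without wild-type replicate 4, against 1322 with all arrays.

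The mean fall of each gene depended on which *vhl* mutant pool was in the average. Without *vhl* mutant replicate 1 the log2 fold change of *ccbl1* was -3.96 (SE 0.077), or 15.6-fold lower. Without *vhl* mutant replicate 4 that of *cryl1* was -4.06 (SE 0.081), or at least 16.7-fold lower, a value that rests on a pair of pools in which the probe was not well above background. Leaving out *vhl* mutant replicate 1 instead gave -2.96 for *cryl1*, or at least 7.79-fold lower, with replicate 3 still at the floor. Leaving out any 1 wild-type array gave fitted changes between 10.1-fold and 10.8-fold lower for both genes.

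The split among mutant pools was wide beside the spread within wild-type embryos. *ccbl1* in *vhl* mutant replicate 1 was 3.36-fold above replicate 3 and 3.14-fold above replicate 4, while replicates 3 and 4 differed by 1.07-fold. Any pair of wild-type pools differed by 1.02-fold to 1.09-fold in *ccbl1*. *cryl1* in *vhl* mutant replicate 4 was 4.60-fold above replicate 1 and 4.18-fold above replicate 3, against 1.03-fold to 1.06-fold between wild-type pools. With replicates 1 and 3 at the floor, these ratios of *cryl1* are taken as lower bounds under the main processing.

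The 2 *ccbl1* spots gave a check on whether single spots set its split. Their log2 intensities differed by 0.085, 0.14 and 0.020 on *vhl* mutant replicates 1, 3 and 4, against 0.018, 0.027 and 0.052 on wild-type replicates 2, 3 and 4. Both spots of *vhl* mutant replicate 1 thus lay above all 4 spots of the other mutant pools. Over the 2122 probes printed more than once, the median range between spots of 1 array was 0.12 to 0.19 log2 units on *vhl* mutant arrays and 0.15 to 0.20 on wild-type arrays. *cryl1* was printed once per array, so the higher reading of *vhl* mutant replicate 4 has no second spot beside it.

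Few probes varied as much between mutant pools. The SD between the 3 *vhl* mutant arrays was above that of 98.6% of probes for *ccbl1* and 99.3% for *cryl1*, over the 25826 probes well above background on all wild-type arrays, whose median SD was 0.16. Between wild-type arrays the SD of *ccbl1* was above that of only 30.5% of the same probes and that of *cryl1* above 13.7%, with a median of 0.096. Among the 635 probes called lower, whose median SD between *vhl* mutant arrays was 0.21, *ccbl1* exceeded 99.4% and *cryl1* 99.8%. The call itself favours probes with little spread, so a high place in that set follows partly from how it was made. The pair was chosen with this split in view, so its place among all probes is also a description.

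**Figure D2:**
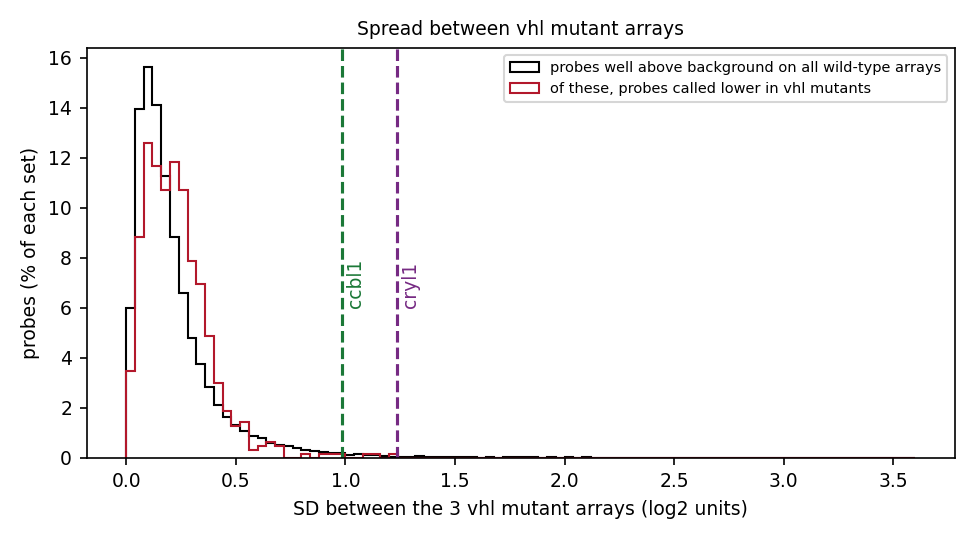
Distribution of the SD between the 3 *vhl* mutant arrays (log2 units) over 25826 probes well above background on all wild-type arrays (black) and over the 635 of them called lower in *vhl* mutants (red), as a percentage of each set. Dashed lines mark *ccbl1* (0.98) and *cryl1* (1.23), which lie beyond 98.6% and 99.3% of the larger set.

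The pattern of *ccbl1* was the more usual of the 2 among falling transcripts. *vhl* mutant replicate 1 was the highest mutant array for 352 of the 635 probes called lower (55.4%), replicate 3 for 158 (24.9%) and replicate 4 for 125 (19.7%). The full order of *ccbl1*, with replicate 1 above 4 above 3, was shared by 149 probes (23.5%), and that of *cryl1*, with 4 above 3 above 1, by 68 (10.71%). The lower ranks are not resolved in either gene. Replicates 4 and 3 differed by 0.098 log2 units in *ccbl1*, less than its 2 spots did on replicate 3 (0.14). *cryl1* was not well above background on replicates 3 and 1. The shifts behind these orders were mostly small, since the median difference from the wild-type mean was -1.25, -1.36 and -1.39 log2 units on *vhl* mutant replicates 1, 3 and 4. Of the 635 probes, 566 cleared background in all 3 *vhl* mutant pools, and *cryl1* was 1 of 4 detected on replicate 4 alone.

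A gap of at least 1 log2 unit between 1 mutant array and both others was uncommon. One *vhl* mutant array stood at least 1 log2 unit above both others for 8 probes called lower in the case of replicate 1, none in that of replicate 3 and 2 in that of replicate 4, a limit chosen after the values were seen. The 8 included *ccbl1* with a gap of 1.65, and beside 3 probes without a name they were *si:dkey-7c18.24* (1.69), *amy2a* (1.15), *dusp23a* (1.102) and *zgc:110409* (1.06). *amy2a*, a pancreatic amylase, had log2 intensities of 13.49, 12.31 and 12.34 in *vhl* mutant replicates 1, 3 and 4, against 15.09, 15.50 and 14.64 in wild-type replicates 2, 3 and 4. *zgc:110409*, now the intestinal alkaline phosphatase gene *alpi.2*, had 10.38, 9.12 and 9.32 against 11.82, 11.68 and 11.84. Both had replicate 1 well above the others, which the limit required, and replicate 4 just above replicate 3. In *dusp23a* and *si:dkey-7c18.24* replicate 3 lay above replicate 4 instead (9.325 against 9.321, and 7.30 against 6.86). As these lower ranks are not resolved in *ccbl1*, no likeness is read from them.

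Beside *cryl1*, with its gap of 2.07, the other probe with *vhl* mutant replicate 4 on top was *nfyba*, a subunit of the CCAAT-binding factor NF-Y. It had log2 intensities of 10.14, 9.90 and 11.24 in *vhl* mutant replicates 1, 3 and 4, against 12.62, 12.21 and 12.71 in wild-type replicates 2, 3 and 4. Over all 25826 probes well above background on wild-type arrays, changed or not, such gaps were found for 328 with replicate 1 on top (1.27%), 56 with replicate 3 (0.217%) and 155 with replicate 4 (0.600%). Among the 635 called lower, a set whose call favours little spread, the shares were 1.26% for replicate 1 and 0.315% for replicate 4.

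The profiles of the pair differed by a root mean square of 1.11 log2 units over the 6 arrays, as measured, with *cryl1* at the floor on 2 of them. Of 2617 named genes, those closest to *ccbl1* by this measure were *ctsbb* at 0.58, *mep1a.1* at 0.62, *nccrp1* at 0.63, *cyp2k6* at 0.63 and *slc22a7b* at 0.66. Those closest to *cryl1* were *mep1a.1* at 0.69, *cyp2k6* at 0.78, *ctsbb* at 0.78, *slc22a7b* at 0.79 and *capn8* at 0.79. So 4 of the 5 nearest genes were the same for both. The measure follows the size of the fall, which was close for the pair (log2 fold change -3.40 and -3.35). The shared genes are therefore not read as likeness of the pair, whose own distance exceeded that to each neighbour.

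These neighbours, all named genes, did not show the split of the pair among mutant pools. They were picked on these same arrays for profiles near those of the pair, so their falls and adjusted p are a description. *ctsbb*, a cathepsin B protease, had log2 intensities of 7.21, 7.07 and 7.06 in *vhl* mutant replicates 1, 3 and 4, against 10.26, 10.65 and 9.96 in wild-type replicates 2, 3 and 4 (log2 fold change -3.18, limma adjusted p = 0.000667). *mep1a.1*, for a subunit of the brush border protease meprin, had 8.21, 8.21 and 8.36 in *vhl* mutants against 11.66, 11.64 and 11.24 in wild-type embryos (-3.25, limma adjusted p = 0.000357). *slc22a7b*, an organic anion transporter, had 7.30, 7.64 and 7.27 in *vhl* mutants against 10.69, 10.41 and 10.73 in wild-type embryos (-3.21, limma adjusted p = 0.000372). No neighbour had mutant arrays more than 0.37 log2 units apart, against 1.75 for *ccbl1* and 2.20 for *cryl1*. The offset added in background correction narrows splits between dim readings. *capn8*, *nccrp1* and *cyp2k6* were dim in mutants, so a split could have been hidden in them.

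Of the neighbours that cleared background in all 3 *vhl* mutant pools, the cytochrome P450 *cyp2k6* was tightest. It had 6.82, 6.82 and 6.76 in *vhl* mutants against 9.76, 9.84 and 9.75 in wild-type embryos (-2.98, limma adjusted p = 6.22e-05). Its log2 fold change ranged from -4.85 to -2.56 over the processing settings. *nccrp1* (limma adjusted p = 0.000349) cleared background in 1 of 3 *vhl* mutant pools, so its fitted change of -2.95 is a bound. The calpain gene *capn8* cleared it in 0, so it is given as at least 7.60-fold lower in *vhl* mutants, with measured means of 6.39 in *vhl* mutants and 9.34 in wild-type embryos (limma adjusted p = 0.000668). For that bound each *vhl* mutant array took the higher of the measured level of *capn8* and the lowest level well above background on that array.

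**Figure D3:**
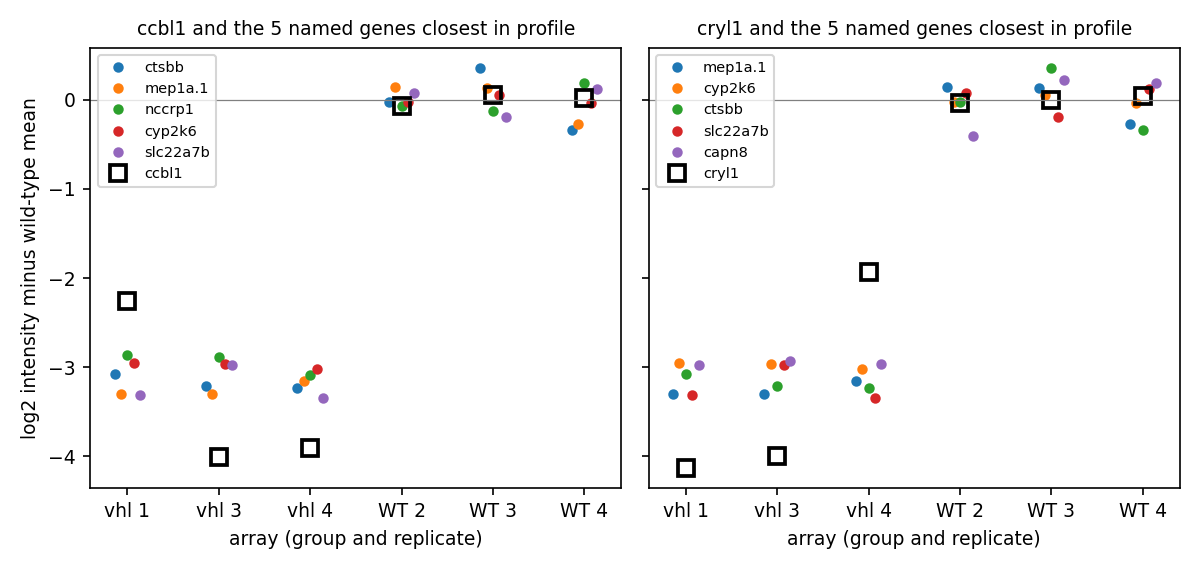
Log2 intensity minus the wild-type mean on the 3 *vhl* mutant arrays (left of each panel) and the 3 wild-type arrays, for *ccbl1* and *cryl1* (open squares) and the 5 named genes closest to each (points, set side by side). The neighbours lie near -3 on all *vhl* mutant arrays, while *ccbl1* is at -2.26 on replicate 1 and *cryl1* at -1.93 on replicate 4.

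Other genes of the pathways of the pair were read where a probe could be named, which was so for 55 of 249 listed genes over 8 lists. Of these 55, 27 were called lower in *vhl* mutants, 6 higher and 22 neither way, with a median log2 fold change of -1.04, against a median of -0.00017 over all probes. Names for 22 of the 55 came only from the study's own table of changed genes, so those were chosen for their change and their direction is not independent evidence. Among the 33 named without it, 9 were called lower and 3 higher, with a median of -0.42. Over all 2557 probes named in that way 2.66% were called lower and 2.39% higher. The lists were drawn up with earlier results of these data known, so the counts of the 33 are a description too. The 33 include *mep1a.1*, *cyp2k6* and *slc22a7b*, given above as neighbours picked on these same arrays. The count of 27 was 14 without *vhl* mutant replicate 3, 14 without *vhl* mutant replicate 4, 10 without wild-type replicate 2, 9 without wild-type replicate 3 and 9 without wild-type replicate 4. Over the same arrays the count of 6 was 3 without *vhl* mutant replicate 3, 2 without wild-type replicate 2, 2 without wild-type replicate 3 and 1 without wild-type replicate 4.

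Around *ccbl1*, a supplier (*tdo2a*) and a partner (*nit2*) of the enzyme were called lower. Only 1 of the 14 other genes listed for the kynurenine pathway could be read, so nothing is said of the pathway as a whole. *tdo2a*, for the tryptophan dioxygenase that opens the route to kynurenine, was the 1 further gene of the kynurenine pathway with a named probe. Its log2 intensities were 11.36, 10.25 and 10.69 in *vhl* mutant replicates 1, 3 and 4, against 12.65, 12.60 and 12.44 in wild-type replicates 2, 3 and 4. The log2 fold change was -1.80 (SE 0.27, limma adjusted p = 0.00620), and the call held in 10 of 20 settings. *vhl* mutant replicate 1 was the highest of the mutant pools, as for *ccbl1* and for 55.4% of all probes called lower. *kyat3*, the paralogue that shares its reaction, was not analysed here.

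*nit2*, for the omega-amidase that hydrolyses the product of glutamine transaminase in mammals, fell evenly. It had log2 intensities of 7.74, 7.64 and 7.73 in *vhl* mutant replicates 1, 3 and 4, against 9.47, 9.63 and 9.30 in wild-type replicates 2, 3 and 4. The log2 fold change was -1.76 (SE 0.098, limma adjusted p = 0.000667). Its mutant pools were level with each other, unlike those of *ccbl1*, whose enzyme acts a step before it.

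In the list of glutamine and cysteine conjugate metabolism 3 of 8 measured genes were called lower and 1 higher, with a median log2 fold change of -1.05. Beside *nit2* these were *si:dkey-102c8.6*, now the glutaminase gene *gls2b* (-1.40, limma adjusted p = 0.00224), and *acy3.1*, for an aminoacylase that frees cysteine conjugates in mammals (-1.30, limma adjusted p = 0.000668). Both had their names from the table of changed genes. The 6 genes of the list named without it held 1 lower and 1 higher, with a median of -0.48. *gstp1.1*, a glutathione transferase, was higher (1.19, limma adjusted p = 0.00695). The gamma-glutamyltransferase gene *ggt5a* had -0.87, less than a 2-fold change, and *gclc*, of glutathione synthesis, had 0.15.

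Of 7 measured genes for other aminotransferases and pyridoxal phosphate enzymes, 2 were called lower and 1 higher, with a median of -0.29. The 5 named without the table of changed genes held 0 lower and 1 higher, with a median of 0.39. The genes called lower were *accs*, related to plant aminocyclopropane carboxylate synthase (-1.42, limma adjusted p = 0.00140), and *cbsa*, for cystathionine beta-synthase (-1.49, limma adjusted p = 0.00409), both named through the table of changed genes. *alas2*, which starts haem synthesis in red cells, was higher (2.88, limma adjusted p = 0.00268). The aspartate aminotransferase gene *got1* was not called (-0.29, limma adjusted p = 0.61), but its mutant pools split with replicate 1 on top, at 12.69, 11.26 and 11.64 in *vhl* mutant replicates 1, 3 and 4 against 11.89, 12.28 and 12.27 in wild-type replicates 2, 3 and 4.

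Around *cryl1*, 2 of 4 measured genes of glucuronate, pentose and polyol metabolism were called lower and none higher by limma, with a median of -0.17, and at an unadjusted p under 0.05 the counts were 2 lower and 2 higher. They were *rbks*, for ribokinase (-1.39, limma adjusted p = 0.00831), and *akr1b1*, for aldose reductase (-1.16, limma adjusted p = 0.00526), both named through the table of changed genes. *tktb*, for transketolase, named without it, was not called and had 1.101 (limma adjusted p = 0.0191). The 2 genes of the list named without the table of changed genes had a median of 0.96. *vhl* mutant replicate 4 was the highest mutant array for *tktb*, as for *cryl1*, though its value lay on the other side of 0.

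From the list made for the 3-hydroxyacyl-CoA dehydrogenase family, *hadhaa* and *hadhb* could be read. They are for the subunits of the mitochondrial trifunctional protein that oxidises long-chain fatty acids. Only the alpha subunit, from *hadhaa*, carries the dehydrogenase, so *hadhb* is a partner and not a member of that family. *hadhaa* had 10.54, 10.61 and 10.66 in *vhl* mutants against 11.78, 11.97 and 11.92 in wild-type embryos (-1.29, limma adjusted p = 0.000675). *hadhb*, named through the table of changed genes, had 13.38, 12.56 and 12.59 in *vhl* mutants against 14.16, 14.18 and 14.14 in wild-type embryos (-1.31, limma adjusted p = 0.00911). In *hadhb* replicate 1 was the highest mutant pool, as for *ccbl1* and for 55.4% of all probes called lower. The mutant pools of *hadhaa* lay close together. *hadh*, the closest relative of *cryl1* in the list, was not analysed here.

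**Figure D4:**
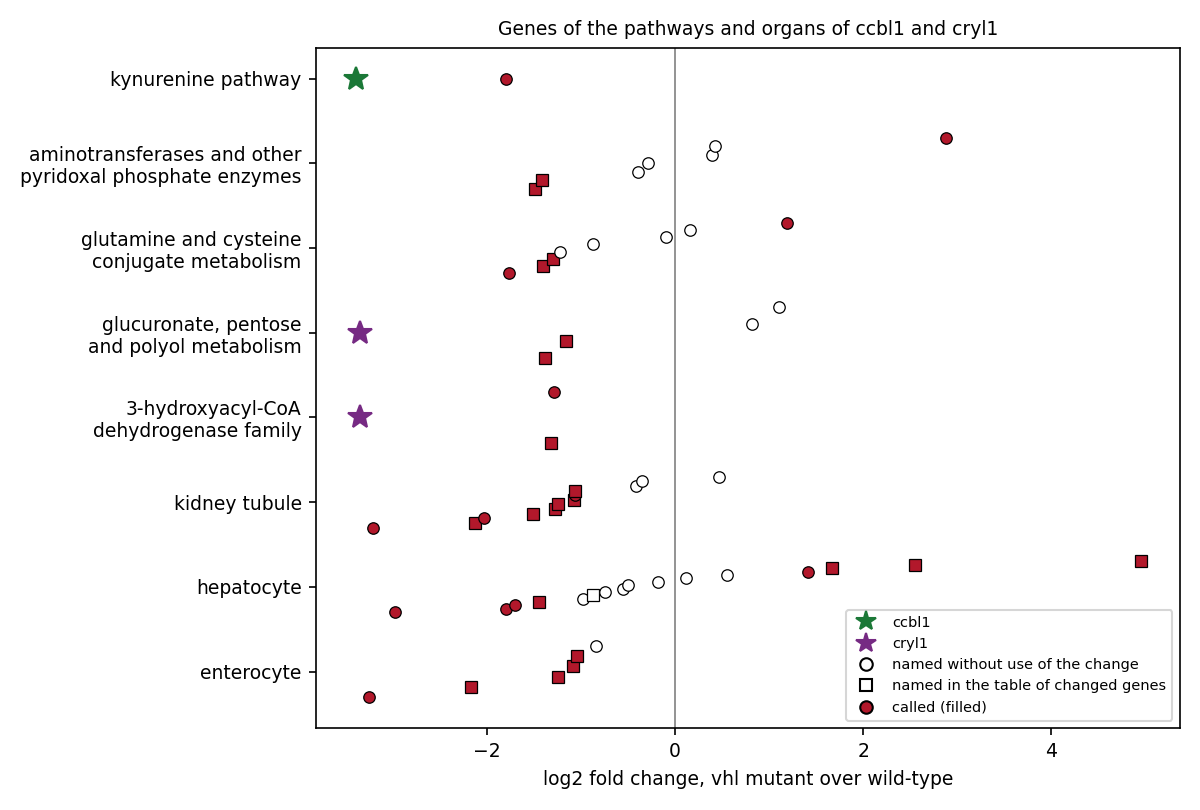
Log2 fold change, *vhl* mutant over wild-type, of each listed gene with a named probe, by list, filled where called, with squares for names taken from the table of changed genes and circles for the rest. *ccbl1* (-3.40) and *cryl1* (-3.35) are drawn as stars in the lists that hold them, and hepatocyte genes lie on both sides of 0.

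Markers of the organs known for these enzymes moved in the same arrays. Of 12 measured kidney tubule genes 9 were called lower and none higher by limma (median -1.16), of which 6 had their names from the table of changed genes. The 6 named without it held 3 lower and 0 higher, with a median of -0.74. At an unadjusted p under 0.05 the counts over all 12 were 10 lower and 1 higher. The summed intensity of the 12 genes was 5367 to 5703 on *vhl* mutant arrays against 11950 to 13299 on wild-type arrays, without overlap. That sum holds the 6 named through the table of changed genes, all called lower, so its fall was partly set in advance. The 8 with the largest change were *slc22a7b*, the phosphate carrier *slc34a2a* (-2.13), the scaffold *pdzk1* (-2.03), the lactate carrier *slc5a12* (-1.51), the amino acid carrier *slc6a19b* (-1.28), the sulphate carrier *slc26a1* (-1.25), the endocytic adaptor *dab2* (-1.08) and *pdzk1ip1* (-1.07), with limma adjusted p of 0.00909 or less. *pax2a*, a transcription factor of the early kidney, was not called (0.47, limma adjusted p = 0.0146), and 1 of the 12, *slc9a3.2*, cleared background in none of the *vhl* mutant pools.

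*pdzk1* was the 1 kidney gene called lower in which *vhl* mutant replicate 4 was the highest mutant array, as for *cryl1*, with log2 intensities of 8.39, 7.99 and 9.02 in *vhl* mutant replicates 1, 3 and 4, against 10.24, 10.75 and 10.50 in wild-type replicates 2, 3 and 4. Its mutant pools lay closer together than those of *cryl1*, and none of them overlapped the wild-type pools. Replicate 4 was the highest mutant array for 19.7% of all probes called lower.

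Hepatocyte genes moved both ways, with 4 of 16 called lower and 4 higher (median -0.53). Of these, 1 of the lower and 3 of the higher had their names from the table of changed genes, and the 11 named without it held 3 lower and 1 higher. At an unadjusted p under 0.05 the counts were 8 lower and 5 higher. Their summed intensity was 317362 to 359343 on *vhl* mutant arrays and 336546 to 362800 on wild-type arrays, which overlap. The brightest gene in that sum was *apobb.1* (wild-type mean 17.29), which was not called (0.11). Next were *serpina1* (-0.87, limma adjusted p = 0.00468) and *serpina1l* (-0.74, limma adjusted p = 0.0121), also not called. *serpina1* missed the 2-fold limit alone. Lower were *cyp2k6*, *tdo2a*, the urea cycle gene *ass1* (-1.70) and the fetuin gene *ahsg* (-1.45). Higher were the plasma protein genes *hpx* for haemopexin (4.95), *cp* for caeruloplasmin (2.55), *fga* for fibrinogen alpha (1.67) and *apom* for an apolipoprotein (1.41), with limma adjusted p of 0.00620 or less over the 8.

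Of 6 enterocyte genes 5 were called lower and none higher by limma (median -1.17), 4 of them named through the table of changed genes. At an unadjusted p under 0.05 the counts were 6 lower and 0 higher. They included *mep1a.1*, *alpi.2* (-2.17), the bile acid binding protein gene *fabp6* (-1.25) and the transcription factor gene *cdx1b* (-1.09), with limma adjusted p of 0.00588 or less. Their summed intensity was 12167 to 16228 on *vhl* mutant arrays against 27166 to 31724 on wild-type arrays. It includes the 4 genes named through the table of changed genes, all called lower, so its fall was partly set in advance. The brightest gene in that sum was *vil1* (wild-type mean 14.06), which was lower by less than 2-fold and so not called (-0.84, limma adjusted p = 0.00737). Of the 27 listed genes called lower, *vhl* mutant replicate 1 was the highest mutant array for 16, replicate 3 for 7 and replicate 4 for 4. Over all 635 probes called lower the shares were 55.4%, 24.9% and 19.7%. Replicate 1 on top was thus usual among falling probes, and no likeness to the pair is read from these counts. The part of kidney, liver and intestinal markers in the fall of *ccbl1* and *cryl1* was not tested.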

How the data were processed

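RNA from pools of 30 whole embryos was labelled with Cy3 and hybridised to custom 1-colour Agilent arrays. Per the file headers, the values are intensities read by Agilent Feature Extraction 10.7.3.1, and the median signal and median local background were used, which the authors had not corrected or normalised. Deposited spot flags are codes without a unit. The deposited series table holds the processed signal intensity, background-subtracted by Feature Extraction, on a linear scale without centring, and 0 columns lacked a sample.

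Groups came from the sample titles. Following the methods of the study, which name limma 3.24.10, limma 3.58.1 in R 4.3.3 was used: normexp (offset 50), quantile normalisation, averaging of replicate spots, lmFit and eBayes over all 6 arrays. Outlier and control spots were left out. A probe was called at a Benjamini-Hochberg adjusted p of 0.01 or less with a change of at least 2-fold. The methods do not state whether p was adjusted. The fit was tested on simulated data, but the outcome is not given here and nothing is read from it.

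*ccbl1* and *cryl1* and all gene lists were chosen with earlier results of these data known, so the pair has no p-value. Named genes are the pair, the called genes of the metabolic lists, the called genes of the organ lists (8 at most), and the 5 genes closest to each of the pair among those well above background on all wild-type arrays. Genes outside this rule were named after their values were seen. Some listed genes are counted but not reported by name here. Of 41031 probes, 1752 were named through RefSeq accessions, 805 through the held part of the study's full probe table and 602 through its table of changed genes. The other 37872 have no name here. Where several probes read a gene, the brightest was used. No genome coordinates are given, because no annotation of the array's build was used. Alternatives were other signals, background corrections, offsets, scalings, filters, thresholds, name sources, a replicate block and leaving out each array. The number of arrays limits precision, as does background for dim probes, and pools of embryos were the replicates.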

Additional observations from a re-analysis of the deposited data

How the results depend on the processing

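*ccbl1* and *cryl1* were below wild-type under all 19 alternatives. *ccbl1* ranged over -4.00 to -3.09 and *cryl1* over -6.25 to -2.88 on the log2 scale. *cryl1* moved by more than its spread under 75th percentile scaling of the processed signal (-6.25) or of the series table (-6.25) and under an offset of 0 (-4.58). Its processed signal was 3.73 and 2.79 on *vhl* mutant replicates 1 and 3. Leaving out 1 array gave -3.96 to -3.09 for *ccbl1*, -4.06 to -2.96 for *cryl1*, 389 to 2169 probes called, and 9 to 27 listed genes called lower with 1 to 7 higher. Calls were 1322, 27 and 6 in the main setting. The processed signal gave 2622 probes and 17 listed genes lower, and the series values gave 2632 and 17. Normexp with 75th percentile scaling gave 9, 0 and 0, and without normalisation 3, 0 and 0, where at an unadjusted limma p of 0.05 the listed genes numbered 27 lower with 9 higher and 29 lower with 7 higher. An adjusted p of 0.05 with no fold limit gave 10029 probes, and RefSeq names alone gave 3 listed genes lower and 2 higher. These scalings moved the median of all probes by 0.33 (processed signal), 0.71 and 0.56, and the share of calls that were lower was 26.2% with the processed signal, against 48.0%. The cause was not tested.

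Replicate numbers 3 and 4 occur in both groups, but same-numbered samples did not deviate together (r = 0.0057 and 0.013). So few arrays cannot exclude a shared clutch or batch. The replicate block compares the groups within replicates 3 and 4 alone, so *vhl* mutant replicate 1 does not enter the fitted change. With it *ccbl1* was -4.00 and *cryl1* -2.98, with 311 probes, 4 listed genes lower and 2 higher. With 75th percentile scaling and spots of defective local background left out, a setting chosen after seeing the data, *ccbl1* was -3.47 and *cryl1* -3.48, with 1937 probes called. The median log2 fold change of all probes was then 0.28, against 0.71 with those spots kept. The spots left out were 2, all on *vhl* mutant replicate 3, and they stayed in the background correction of the main setting. Signal over background limits *cryl1*, which was measured in 1 of 3 *vhl* mutant pools.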
